A study of Mus musculus with 52 samples.

Results

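The 20 primary mouse osteosarcomas described here are the 10 richest and the 10 poorest in T-cell transcripts among 31 bulk RNA libraries, out of 52 libraries in all. They were chosen by a T-cell score, the mean of log2(CPM + 1) over Cd3e, Cd3d, Cd3g, Cd2 and Cd8a, where CPM is the count scaled to a common library total. The score ranked the 34 libraries whose column names lack the prefix R1002-, after 3 of them with Col1a1, the main collagen gene of bone matrix, under 13 log2 CPM had been set aside. The other 18 libraries carry that prefix. The genotypes concern Trp53, the gene of the tumour suppressor p53: both alleles were conditional in p53fl/fl, whereas p53R172H/fl and p53R245W/fl paired a conditional allele with a missense mutant one, R172H or R245W. The labels state neither age, sex nor treatment, nor the Cre line that acts on the conditional allele, and each tumour number is taken as 1 animal's tumour without further record. The T-cell-rich class held 7 p53R172H/fl, 2 p53fl/fl and 1 p53R245W/fl tumours. The T-cell-poor class held 1 p53R172H/fl, 5 p53fl/fl and 4 p53R245W/fl tumours, so genotype was a covariate in every comparison between the classes unless stated.

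T cells recognise peptides on MHC molecules through the T-cell receptor, whose signal passes through the CD3 chains. CD8 marks cells that read MHC class I and can kill their target, and CD4 marks cells that read MHC class II on antigen-presenting cells. Activated T cells release interferon gamma, which raises antigen presentation and the chemokines that draw in CXCR3-bearing lymphocytes, and lasting stimulation is accompanied by receptors such as PD-1 (Pdcd1) that restrain the cell. Osteosarcoma is a bone-forming tumour that is usually sparsely infiltrated by lymphocytes and rich in macrophages.

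Score values were 0.69 to 1.17 in the T-cell-rich tumours (median 0.86) and 0.02 to 0.27 in the T-cell-poor tumours (median 0.22). The 5 genes chose the classes, so these values are a description and carry no test. The ranking had no gap at the lower edge: T-cell-poor tumour 941 scored 0.266 and its neighbour 847, outside the class, 0.274. At the upper edge tumour 1832, outside the class, scored 0.57 and T-cell-rich tumour 865 scored 0.69. Even the T-cell-rich class is rich only in comparison. Cd3e, a signalling chain of the receptor complex, had 22 to 80 counts per library there (median 42.5) and 0 to 22 counts in the T-cell-poor tumours (median 5.5). Cd8a, the alpha chain of CD8, had a median of 1.21 CPM (0.461 to 2.01) against 0.145 CPM (0.0358 to 0.265). T-cell-poor p53fl/fl tumour 1512 had 0 counts of Cd3e, Cd3d, Cd3g and Cd2 and 4 of Cd8a. In bulk RNA, fewer T cells and less T-cell RNA per cell cannot be told apart.

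**Figure D1:**
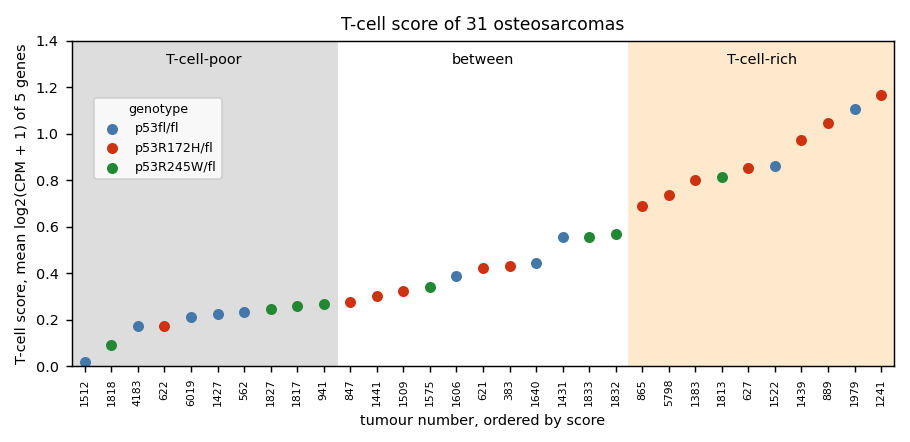
T-cell score (y axis, mean log2(CPM + 1) of 5 genes) of each of 31 tumours, ordered along the x axis by score and coloured by genotype. The grey band holds the 10 T-cell-poor tumours (0.02 to 0.27), the orange band the 10 T-cell-rich tumours (0.69 to 1.17), and 11 tumours lie between.

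Library depth was alike in the 2 classes, with total counts of 36606728 to 67223388 in the T-cell-rich and 38251440 to 65700660 in the T-cell-poor tumours. Col1a1 was at 14.8 to 16.4 log2 CPM in the T-cell-rich and 13.7 to 16.3 in the T-cell-poor tumours. The floor of 13 log2 CPM had already required bone matrix RNA in every library. The mitochondrial share of counts had a median of 1.62% in the T-cell-rich (1.10% to 4.20%) and 2.38% in the T-cell-poor tumours (1.99% to 3.11%). Column prefixes divide the 20 libraries into set A (prefixes FM, FNM, WFM and WFNM), with 6 T-cell-rich and 4 T-cell-poor tumours, and set C (prefix R553), with 4 and 6. T-cell-rich p53R172H/fl library 627 held both Xist, a transcript of female cells, at 715 CPM and Y-linked Ddx3y at 76.6 CPM, and T-cell-poor p53fl/fl library 1512 held them at 121 and 70.7 CPM. Other libraries held both with less Xist, among them T-cell-rich 1241 (71.5 and 20.5 CPM), 1439 (42.8 and 24.6 CPM) and 1522 (33.2 and 30.8 CPM). The parts of the mitochondrial share and of these libraries were not tested beyond leaving each library out.

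The comparison asks which other genes differ between T-cell-rich and T-cell-poor tumours of like genotype. Within p53R172H/fl it sets 7 T-cell-rich tumours against 622 alone, and within p53R245W/fl 1813 alone against 4 T-cell-poor tumours. Within p53fl/fl it sets 1522 and 1979 against 5 T-cell-poor tumours. The fold changes therefore lean on 622, 1813, 1522 and 1979. In set C only p53R245W/fl held both classes. Every set C fold change below thus compares 1813 alone with 1818, 1827, 1817 and 941, and is the value of 1 T-cell-rich tumour. CPM medians and ranges are not adjusted for genotype and can differ from the fold changes in direction. After adjustment over all 17624 genes tested, edgeR's quasi-likelihood test called 0 genes (0.00%) at an adjusted p under 0.05. DESeq2 called 11 genes (0.0624%) and limma voom 0. At an unadjusted p under 0.05 edgeR had 956 genes (5.42%), of which 581 (3.30%) were higher and 375 (2.13%) lower in the T-cell-rich tumours. The median log2 fold change of all tested genes was -0.04. None of the differences below passed the adjusted threshold in this comparison. Unadjusted p-values are given to rank them and are not calls. The 6 genes higher in T-cell-rich tumours by DESeq2 were Ighm, Ltb, Pdcd1, Gimap3, Tnfrsf18 and Mgl2, and its 5 lower genes were 4 gene models with Gm symbols and 1 ribosomal protein pseudogene, whose reads could belong to near-identical copies. Each tumour is 1 library, so the spread behind every p-value is that between these libraries.

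A second fit used the score itself as a covariate over all 31 tumours, which keeps the 11 tumours between the classes. It called 28 of 20128 genes: 26 rose with the score (0.129%) and 2 fell (0.00994%). This fit shares its libraries with the comparison of classes and is no independent evidence for it. T-cell genes share the cells that the score measures. For them, and for genes said below to be tested through the T-cell-rich class, the slope and its adjusted p are a description only. The 26 include T-cell and other lymphocyte genes (Cd6, Trbc2, Cd8b1, Themis, Gimap3, Ms4a4b, Sh2d2a, Stat4, Ikzf3, Itgal, Traf3ip3 and Ptprcap), checkpoint and costimulatory receptors (Pdcd1 and Tnfrsf18), the chemokine receptor Cxcr3, lymphotoxin beta (Ltb), immunoglobulin genes (Ighm and Igkv17-127), the dendritic-cell receptor Clec9a, interferon-inducible GTPases (Gbp4 and Gbp9) and MHC class II (H2-Ab1). With library set as a further covariate 26 of the 28 were called again, without tumour 1241 26, without 627 24, without 1512 23 and without 1439 27. H2-Ab1 was lost without 1241 or 627, and Gbp4 with library set and without 627 or 1512. Both falling genes, the antisense RNA Hand2os1 and a gene with no matched symbol, were lost without 1512. Slopes are given below as log2 per unit of score, and the medians of the classes lie 0.64 units apart.

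**Figure D2:**
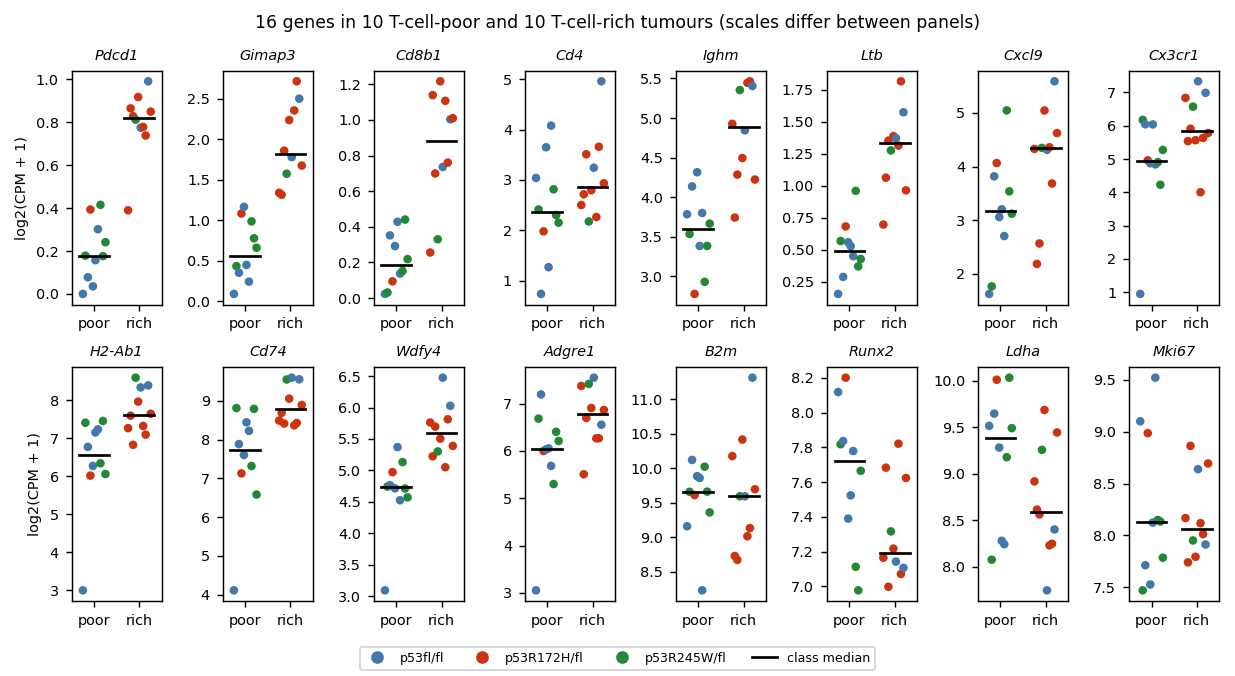
Each point is 1 tumour's log2(CPM + 1) of a gene (y axis, scale differs between panels) in the 10 T-cell-poor and 10 T-cell-rich tumours (x axis), coloured by genotype, with a bar at the class median. Gimap3 does not overlap between the classes, H2-Ab1 and Cd74 are lowest in 1 T-cell-poor tumour (1512), and for B2m and Mki67 the classes overlap.

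Genes of the T-cell lineage outside the score stood higher in the T-cell-rich class, by 1.41 to 2.23 log2 units for the genes named first. Such genes share the cells that the score measures, so a rise was largely set by the choice of classes. Their p-values and slopes are a description only. Gimap3 (chr6:48764464-48770851, GRCm38), a GTPase of lymphocyte survival, ranged from 1.49 to 5.58 CPM (median 2.53) in the T-cell-rich tumours and from 0.0649 to 1.25 CPM (median 0.473) in the T-cell-poor tumours. The lowest T-cell-rich tumour was above the highest T-cell-poor tumour. The log2 fold change was 2.23 (SE 0.52, p = 0.000351, adjusted p = 0.745 by edgeR), with 2.71 within set A and 1.58 within set C, and the slope on the score was 3.17 (SE 0.47, adjusted p = 0.0022 by edgeR). Icos, a costimulatory receptor of activated T cells, was at 0.624 to 1.13 CPM against 0.0324 to 0.605, and Il18r1, a receptor chain for interleukin 18, at 0.781 to 2.65 against 0.0162 to 0.747. Among the 17624 tested genes, these 3 were the only ones whose T-cell-rich values all lay above all T-cell-poor values. For 1 gene the T-cell-rich values all lay below. The T-cell-receptor constant gene Trbc2 had a median of 1.27 CPM (0.489 to 2.06) in the T-cell-rich and 0.333 CPM (0 to 0.623) in the T-cell-poor tumours, with 8 of 10 T-cell-rich tumours above every T-cell-poor one. Its slope was 2.70 (SE 0.52, adjusted p = 0.0176 by edgeR).

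Cd8b1, the beta chain of CD8, was at 0.194 to 1.32 CPM (median 0.85) in the T-cell-rich tumours and 0.0162 to 0.357 CPM (median 0.137) in the T-cell-poor tumours. It reached the count filter, 0.187 CPM, in 4 of the 10 T-cell-poor and all 10 T-cell-rich libraries, so it was tested through the T-cell-rich class and had to differ. Its log2 fold change was 2.10 (SE 0.68), 2.83 within set A and 0.63 within set C, and it rose with the score (slope 3.26, SE 0.68, adjusted p = 0.0356 by edgeR). Cd8b1 pairs with the score gene Cd8a, so it is close to what chose the classes, and its slope is a description only. Cd4, the co-receptor of helper and regulatory T cells that macrophages can also carry, overlapped between the classes: 3.51 to 30.1 CPM (median 6.28) against 0.663 to 15.9 CPM (median 4.13). Only 1 T-cell-rich tumour, 1979, exceeded every T-cell-poor tumour. Its difference was 1.0 log2 units (SE 0.58, p = 0.1), with 1.22 in set A and -0.34 in set C, and 0.37 without tumour 1979.

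The list of T-cell receptor and signalling genes held 24 members outside the score genes, of which 23 were tested. Of these, 10 had an unadjusted p under 0.05 in the direction of the T-cell-rich class and 0 in the other, against 3.30% and 2.13% of all tested genes, and 18 had a positive value. Their median log2 fold change was 1.0, beside -0.04 for all tested genes. The list shares the cells that the score measures, so these numbers are a description and no support for the classes. In 3 of the 23 the count filter was passed in fewer than 5 T-cell-poor libraries, so these had to differ; without a filter 24 members had a median of 1.08. The member with the most counts, Tcf7, a transcription factor that bone-forming and other mesenchymal cells can also express, overlapped between the classes at 20.6 to 108 CPM against 18.7 to 121 (log2 fold change -0.12, SE 0.43, p = 0.787), and its value ran from -0.75 without tumour 1813 to 0.15 without 1979. The summed level of the list overlapped widely, 97.9 to 321 CPM in the T-cell-rich and 95.4 to 273 CPM in the T-cell-poor tumours.

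Some cytotoxic and natural killer genes of low level stood higher in the T-cell-rich class, and the most abundant members did not. Nkg7, a granule protein of killer lymphocytes, ranged from 0.423 to 1.77 CPM (median 1.08) in T-cell-rich and from 0 to 0.615 CPM (median 0.208) in T-cell-poor tumours, with a log2 fold change of 2.12 (SE 0.67, p = 0.00482). Gzmb, the protease granzyme B, was at 0.229 to 1.8 CPM against 0 to 0.537, and 7 of 10 T-cell-rich tumours exceeded every T-cell-poor tumour. The other 3 lay below the T-cell-poor median of 0.312 CPM. Klrk1, the activating receptor NKG2D of NK and CD8 T cells, had medians of 1.11 and 0.493 CPM. Zeb2, a transcription factor that many stromal and myeloid cells also express, was at 258 to 432 CPM (median 344) against 201 to 449 CPM (median 373), a log2 fold change of -0.09 (SE 0.20, p = 0.636), and 8 of 10 T-cell-rich tumours lay below the T-cell-poor median. Runx3, a transcription factor of killer lymphocytes that bone-forming cells can also express, had a log2 fold change of 0.03 (SE 0.21, p = 0.896), and without 1 library it ran from -0.07 to 0.18. Among 10 tested members of the cytotoxic list (14 in all, and 3 of the 10 tested through the T-cell-rich class) 4 were higher at an unadjusted p under 0.05, 9 were positive and the median was 1.16; without T-cell-rich tumour 1979 the number higher was 2. The summed level of the list had medians of 394.9 CPM in the T-cell-rich and 414.3 CPM in the T-cell-poor tumours. Of 5 tested NK-cell members (10 in all) 3 were higher, and the median was 1.35. The defining NK receptor Ncr1 and the effector genes Gzmk, Fasl and Tbx21 were too low to be tested, and Ifng was not analysed here. Killer genes of NK cells and of T cells cannot be separated here, and the part of NK cells was not tested.

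Pdcd1 (chr1:94038305-94052553, GRCm38), which encodes PD-1, was at 0.31 to 0.988 CPM (median 0.766) in the T-cell-rich tumours and at 0 to 0.334 CPM (median 0.131) in the T-cell-poor tumours. Tumour 865 was the only T-cell-rich tumour within the T-cell-poor range. Pdcd1 reached the count filter in 4 of 10 T-cell-poor libraries, as did Tnfrsf18, and Foxp3 in 2, against 10 of 10 T-cell-rich libraries for each, so all 3 were tested through the T-cell-rich class and had to differ. The log2 fold change of Pdcd1 was 2.29 (SE 0.53), with 2.12 in set A and 1.94 in set C. Its slope on the score was 3.22 (SE 0.58, adjusted p = 0.0118 by edgeR), a description only, because that fit shares these libraries. Tnfrsf18, the costimulatory receptor GITR that is high on regulatory T cells, was at 0.306 to 1.43 CPM against 0.0973 to 0.403, a log2 fold change of 1.97 (SE 0.40). Foxp3, the master transcription factor of regulatory T cells, had medians of 0.359 and 0.122 CPM (log2 fold change 1.39, SE 0.53). The ligand of PD-1, Cd274, overlapped between the classes: 3.21 to 12.1 CPM against 1.48 to 6.63, a log2 fold change of 0.67 (SE 0.37, p = 0.0871), or 0.40 without tumour 1979. Vsir, which encodes the checkpoint VISTA found on myeloid cells, was at 52 to 233 CPM against 39 to 123 (log2 fold change 0.87, SE 0.27, p = 0.00403). Of 18 tested checkpoint genes (23 in all, and 2 of the 18 tested through the T-cell-rich class) 4 were higher at an unadjusted p under 0.05 and 0 lower, with a median of 0.59. Of 9 regulatory T-cell genes, all tested, with 3 tested through the T-cell-rich class, 3 were higher and all 9 positive, with a median of 0.64. Without T-cell-poor tumour 941 that median was 1.06, and without T-cell-rich tumour 1813 it was 1.11 with 1 gene higher.

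The gene with the smallest p of all was Ighm (chr12:113418558-113422730, GRCm38), the heavy chain of immunoglobulin M made by B cells and early plasma cells. It ranged from 12.4 to 43.2 CPM (median 28.6) in T-cell-rich and from 5.87 to 18.9 CPM (median 11.2) in T-cell-poor tumours, and 7 of 10 T-cell-rich tumours exceeded every T-cell-poor tumour. Its log2 fold change was 1.74 (SE 0.29, p = 7.37e-06, adjusted p = 0.13 by edgeR), with 1.67 in set A and 2.06 in set C. The set C value compares tumour 1813 alone with the T-cell-poor p53R245W/fl tumours. Ighm was the single gene called once library set was added to the model (log2 fold change 1.79, adjusted p = 0.00521 by edgeR). Igkc, the kappa light chain, spread over a wide range in both classes, 3.88 to 67.8 CPM against 0.778 to 26.7, as did Jchain, the joining chain of secreted immunoglobulin, at 1.6 to 25.9 against 0.195 to 12.3. Cd22, a B-cell surface receptor, had medians of 5.04 and 2.33 CPM, and Bank1, a B-cell scaffold, 3.02 and 1.97 CPM.

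For the immunoglobulin list 10 of 13 members were tested, 5 were higher at an unadjusted p under 0.05 and the median was 1.80. Without tumour 622, 1813 or 1979 the number higher was 2 in each case, with medians of 1.42, 1.20 and 1.64. Its member with the most counts, Sdc1, which epithelial and mesenchymal cells also carry, was at 65.1 to 351 CPM in the T-cell-rich and 87.8 to 301 CPM in the T-cell-poor tumours (log2 fold change -0.39, SE 0.36, or -0.68 without tumour 1813). The B-cell list had 6 of 12 members tested, 2 of these through the T-cell-rich class, and 2 higher, with a median of 0.93. The defining B-cell genes Ms4a1 and Cd79a were too low to be tested. B-cell list members summed to 6.78 to 27.9 CPM in the T-cell-rich and 1.82 to 9.76 CPM in the T-cell-poor tumours. Whether B cells account for part of the other immune differences was not tested.

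**Figure D3:**
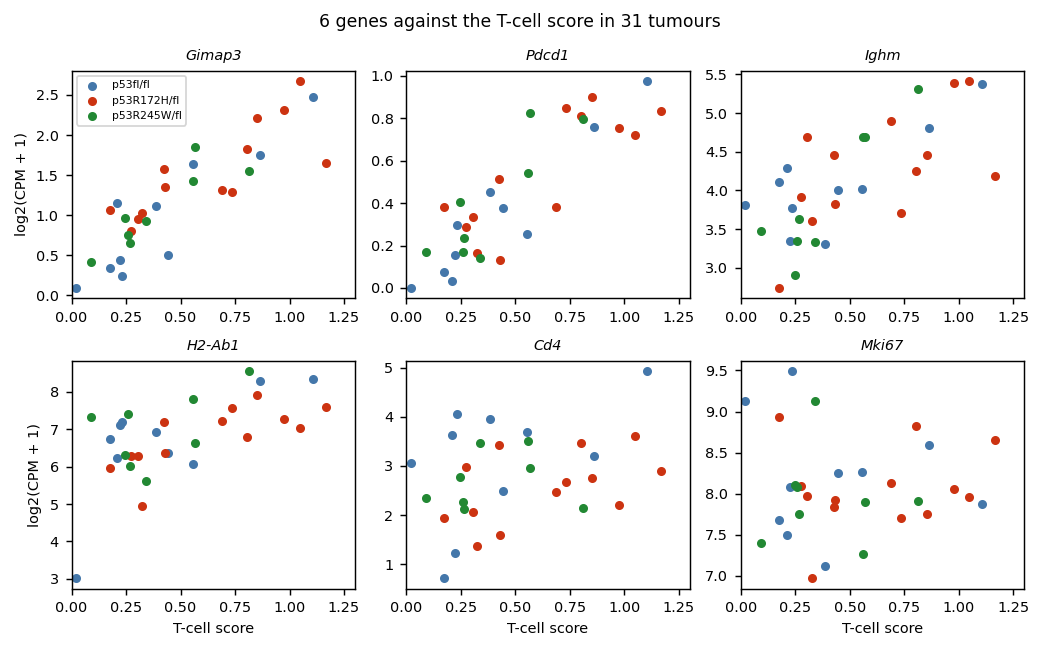
log2(CPM + 1) of 6 genes (y axis) against the T-cell score (x axis) in 31 tumours coloured by genotype. Gimap3, Pdcd1, Ighm and H2-Ab1 rose with the score at an adjusted p under 0.05 (slopes 3.17, 3.22, 1.78 and 2.06), whereas Cd4 (slope 1.36) and Mki67 (slope -0.15) did not pass. Gimap3 shares the cells that the score measures and Pdcd1 was tested through the T-cell-rich class, so both slopes are a description only.

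MHC class II genes, which present peptides to CD4 T cells, had 6 of 11 members higher at an unadjusted p under 0.05. H2-Ab1 (chr17:34257689-34269419, GRCm38), a class II beta chain, was at 112 to 386 CPM (median 196) in the T-cell-rich tumours and at 6.97 to 174 CPM (median 94.2) in the T-cell-poor tumours. All 10 T-cell-rich tumours lay above the T-cell-poor median and 6 above every T-cell-poor tumour. The log2 fold change was 1.64 (SE 0.41, p = 0.000717, adjusted p = 0.745 by edgeR), 1.63 in set A and 1.66 in set C, and the slope 2.06 (SE 0.45, adjusted p = 0.0492 by edgeR). The partner chains H2-Aa and H2-Eb1 differed by 1.49 (SE 0.45) and 1.64 (SE 0.45), the invariant chain Cd74 by 1.62 (SE 0.44) and their transactivator Ciita by 1.60 (SE 0.47). Ciita, the switch for class II transcription, was at 13.9 to 39.6 CPM against 0.697 to 18. Ctss, a protease that trims the invariant chain, was at 115 to 352 CPM against 15.5 to 299 (log2 fold change 0.80, SE 0.41, p = 0.0677). All 11 members were tested, all 11 were positive and the median was 1.15. Tumour 1512 was the lowest for these genes, and without it the 11 members had a median of 1.08 and 7 an unadjusted p under 0.05.

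Promoters of class II genes hold a conserved Y box with the letters CCAAT, bound by the factor NF-Y, beside sites through which CIITA acts. The promoters of H2-Aa and H2-Eb1 are shown because these genes differed with the others of the list, and Gbp2 as a gene of the interferon gamma list. Each is the 250 bases before the RefSeq start in GRCm38.p6, 5′ to 3′ on the gene's strand. H2-Aa lies at chr17:34287824-34288073 on the minus strand, H2-Eb1 at chr17:34305617-34305866 and Gbp2 at chr3:142620413-142620662, both on the plus strand. Capitals mark CCAAT or its reverse complement ATTGG in the first 2, and the core of the interferon-stimulated response element (GAAA, any 2 bases, GAAA) on either strand in Gbp2.
H2-Aa: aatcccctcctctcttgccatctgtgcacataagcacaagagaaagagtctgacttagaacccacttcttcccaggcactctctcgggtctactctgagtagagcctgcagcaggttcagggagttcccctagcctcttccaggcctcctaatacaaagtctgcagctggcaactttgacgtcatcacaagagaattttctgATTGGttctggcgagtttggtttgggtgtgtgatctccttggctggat
H2-Eb1: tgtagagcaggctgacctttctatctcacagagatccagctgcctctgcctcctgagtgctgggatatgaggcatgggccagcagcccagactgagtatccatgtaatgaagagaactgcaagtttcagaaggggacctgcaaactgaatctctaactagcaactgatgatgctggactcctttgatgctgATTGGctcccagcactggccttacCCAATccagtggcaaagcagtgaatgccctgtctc
Gbp2: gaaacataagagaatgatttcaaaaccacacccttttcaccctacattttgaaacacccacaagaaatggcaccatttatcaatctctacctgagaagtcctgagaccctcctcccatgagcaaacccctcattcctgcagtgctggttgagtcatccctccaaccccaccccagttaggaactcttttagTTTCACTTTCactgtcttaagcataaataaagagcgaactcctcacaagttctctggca
CCAAT, on either strand, occurs in 37.4% of the 32851 promoter windows of 300 bases (250 before to 50 after the start), so a match is common. The response element core occurs in 3.44% of windows and was found in Gbp2 and Cxcl10, not in Cxcl9 or Tap1. The gamma-activated site TTCNNNGAA occurs in 8.30% and was in none of Cxcl9, Cxcl10, Tap1, Gbp2, H2-Aa and H2-Eb1. The motifs were searched over the whole window on both strands, and a match is not a measured binding site.

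Gbp4, an interferon-inducible GTPase, was at 8.08 to 151 CPM (median 13.6) in T-cell-rich and 2.27 to 22.6 CPM (median 5.93) in T-cell-poor tumours, a log2 fold change of 1.87 (SE 0.56, p = 0.00331), 2.32 in set A and 1.61 in set C. Without T-cell-rich tumour 1979 it was 0.81. Gbp2, of the same family, was at 20.5 to 80.9 CPM against 4.07 to 54.3 (log2 fold change 1.08, SE 0.38, p = 0.0104). The receptor chain Ifngr1 had medians of 99.1 and 81.8 CPM (log2 fold change 0.51, SE 0.22, p = 0.0314), or 0.33 without tumour 1522. Of 24 tested members of the interferon gamma response list (25 in all) 9 were higher and 0 lower at an unadjusted p under 0.05, with a median of 0.73. Without T-cell-rich tumour 1979 the number higher was 2, with a median of 0.57, and without T-cell-poor tumour 4183 it was 14, with a median of 0.96. The type I interferon list had 0 of 24 members at that threshold, although all 24 were positive, with a median of 0.53, or 0.32 without tumour 1979 and 0.95 without 4183. In the fit on the score over 31 tumours 17 of 24 interferon gamma genes had an unadjusted p under 0.05 and a positive slope, with a median slope of 1.35. So did 10 of 24 type I genes, with a median of 1.22. Of the 17624 genes tested between the classes 756 had such a positive slope, and their median slope over all was -0.06. Whether the 2 lists differ was not tested.

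MHC class I genes present to CD8 T cells and are carried by most cells. B2m, the invariant light chain of class I, was at 406 to 2540 CPM (median 771) in the T-cell-rich and 299 to 1110 CPM (median 807) in the T-cell-poor tumours. Its log2 fold change was 0.49 (SE 0.36, p = 0.189), 0.89 in set A and -0.10 in set C. It was -0.05 without T-cell-rich tumour 1979 and 0.73 without T-cell-poor tumour 622, and its slope on the score was 0.88 (unadjusted p = 0.0165). All 19 list members were tested and positive, 1 had an unadjusted p under 0.05 and the median was 0.37. Without tumour 1979 the median was 0.06 and 11 of 19 were positive. On the score 7 of the 19 had a positive slope at an unadjusted p under 0.05, against 756 of the 17624 genes. Their median slope was 0.64.

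**Figure D4:**
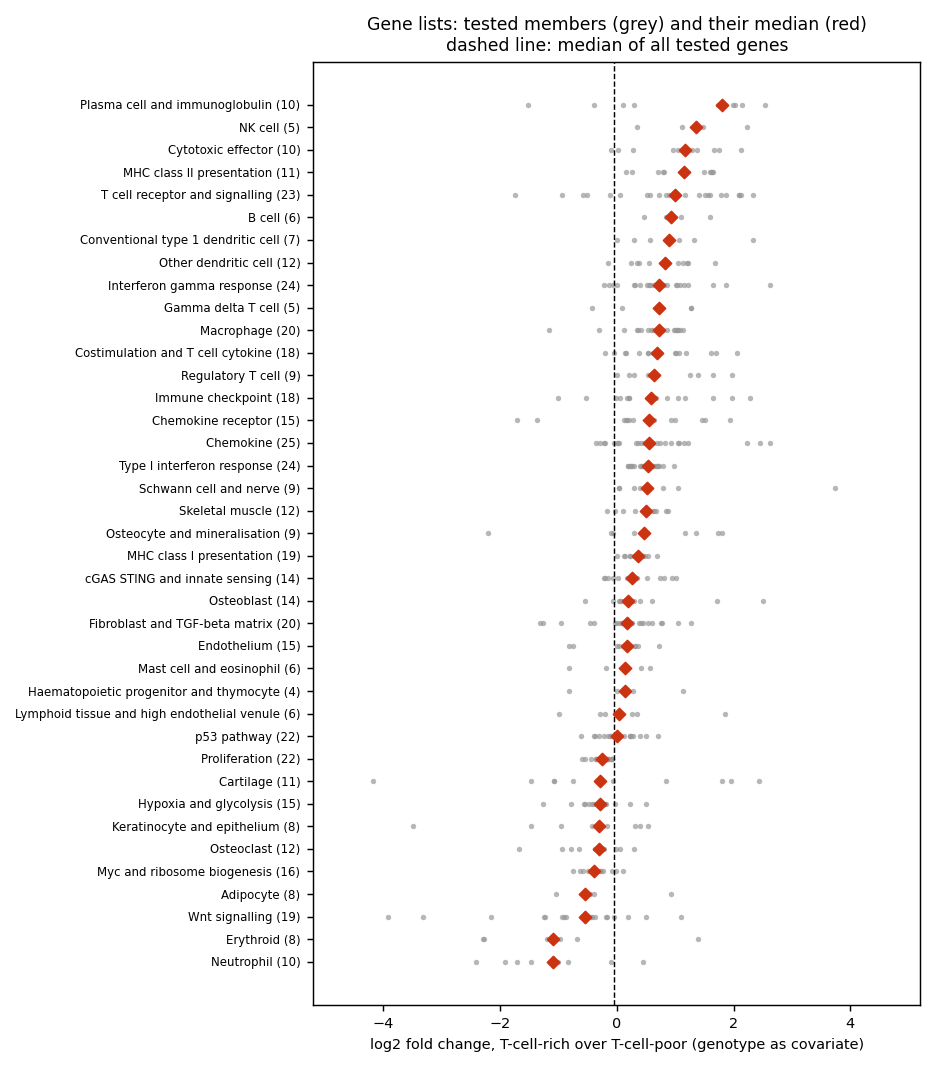
log2 fold change of T-cell-rich over T-cell-poor tumours (x axis, genotype as covariate) for tested members (grey points) and the median (red diamond) of 39 gene lists (y axis, number tested in brackets); the dashed line is the median of all 17624 tested genes at -0.04. Immunoglobulin, NK, cytotoxic, class II and T-cell lists lie to the right with medians of 1.80, 1.35, 1.16, 1.15 and 1.0.

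Chemokine receptors of T cells stood higher in most T-cell-rich tumours. Cxcr3, the receptor for Cxcl9 and Cxcl10 on activated T cells, was at 0.737 to 1.8 CPM (median 1.24) against 0.0649 to 0.746 CPM (median 0.534), with 9 of 10 T-cell-rich tumours above every T-cell-poor one. Its log2 fold change was 1.51 (SE 0.40, p = 0.00114) and it rose with the score (slope 1.99, SE 0.40, adjusted p = 0.0285 by edgeR). Cxcr6, a receptor of resident and effector T cells, was at 0.543 to 15.7 CPM against 0.0324 to 0.717, its top value in tumour 5798 alone. The ligand Cxcl9 was at 3.53 to 47.2 CPM (median 19.2) against 2.08 to 32.1 CPM (median 7.95), a log2 fold change of 1.15 (SE 0.55, p = 0.0495), and 2 T-cell-rich tumours lay below the T-cell-poor median. Without T-cell-rich tumour 1979 it was 0.67. Cxcl10 overlapped widely, at 4.13 to 32.9 CPM against 0.438 to 29.6 (log2 fold change 0.56, SE 0.64, p = 0.396), with -0.07 without tumour 1979 and 1.06 without T-cell-poor tumour 4183. Ccl5, a chemokine made by killer lymphocytes, was at 1.57 to 3.93 CPM against 0.0162 to 1.83 (log2 fold change 1.04, SE 0.53, p = 0.0633). Cx3cr1, carried by monocytes, macrophages and effector lymphocytes, had medians of 56.5 and 29.6 CPM (log2 fold change 1.46, SE 0.54, p = 0.015). Of 25 tested chemokines (29 in all) 5 were higher at an unadjusted p under 0.05, and of 15 tested receptors (21 in all) also 5, both with a median of 0.56. Without tumour 1979 the number of chemokines higher was 1, and without T-cell-rich tumour 1813 the number of receptors higher was 2.

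Ltb, the lymphotoxin chain that lymphocytes use to organise lymphoid tissue, was at 0.621 to 2.52 CPM (median 1.52) in T-cell-rich and 0.114 to 0.945 CPM (median 0.404) in T-cell-poor tumours. It differed by 1.85 log2 units (SE 0.40, p = 0.00017, adjusted p = 0.745 by edgeR; DESeq2 adjusted p = 0.0295), 1.89 in set A and 1.45 in set C. The list of lymphoid tissue and high endothelial venule genes to which it belongs had 6 of 12 members tested, 1 higher at an unadjusted p under 0.05 (Ltb itself) and a median of 0.03, which ran from -0.44 without tumour 622 to 0.60 without 1813. Of 18 tested costimulation and cytokine genes (27 in all), 6 were higher (3 without tumour 622), among them Il16, a T-cell chemoattractant, at 16 to 36.9 CPM against 4.31 to 30.2 (log2 fold change 0.75, SE 0.32, p = 0.0293).

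Clec9a, a receptor of type 1 conventional dendritic cells that take up dead cells, was at 0.248 to 1.47 CPM against 0.0219 to 0.346, a log2 fold change of 2.33 (SE 0.57), 1.90 in set A and 2.05 in set C. It reached the count filter in 2 of 10 T-cell-poor and 10 of 10 T-cell-rich libraries, so it was tested through the T-cell-rich class and had to differ. Among the R1002- libraries described below, 5 against 5, it was -0.47. Its slope on the score was 2.71 (SE 0.54, adjusted p = 0.027 by edgeR), a description only, and at such levels each value rests on few counts. Wdfy4, needed for cross-presentation in those cells and also expressed by B cells, was at 32.2 to 88 CPM (median 47.6) against 7.54 to 40.4 CPM (median 25.5), with 7 of 10 T-cell-rich tumours above all T-cell-poor ones (log2 fold change 1.06, SE 0.27, p = 0.000924). Irf8, a transcription factor of dendritic cells and B cells, had medians of 31.1 and 20.5 CPM (log2 fold change 0.89, SE 0.28, p = 0.00457). Of 7 tested type 1 dendritic-cell genes (8 in all; Xcr1 was too low) 4 were higher at an unadjusted p under 0.05, with a median of 0.89.

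Macrophage genes overlapped between the classes. Adgre1, the F4/80 antigen, was at 44.5 to 186 CPM (median 109) against 7.3 to 145 CPM (median 64.9), with a log2 fold change of 0.98 (SE 0.41, p = 0.0284). Complement gene C1qa had medians of 285 and 173 CPM and Aif1, a macrophage activation protein, 16.9 and 10.2 CPM (log2 fold change 1.14, SE 0.33, p = 0.00226). The abundant lysozyme gene Lyz2, at 404 to 864 CPM against 72.5 to 924, differed by 0.61 (SE 0.37, p = 0.115), and Apoe, a lipid carrier of macrophages, by 0.80 (SE 0.44, p = 0.0831). Of 20 macrophage genes, all tested, 6 were higher at an unadjusted p under 0.05, 18 were positive and the median was 0.72, or 0.60 without tumour 1512. Without T-cell-rich tumour 1522 the number higher was 1, and without T-cell-poor tumour 4183 it was 10. The list summed to 1846 to 5768 CPM in the T-cell-rich and 676.9 to 4509 CPM in the T-cell-poor tumours. The part of macrophages in the class II difference was not tested.

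The neutrophil list had 10 of 12 members tested, 0 at an unadjusted p under 0.05 in either direction and a median of -1.10; its summed level was 12.1 to 253 CPM in the T-cell-rich and 7.75 to 50.5 CPM in the T-cell-poor tumours, so the median and the sum differ in sign. The median was -1.82 without tumour 622 and -0.55 without 1979. Its median slope on the score was 2.06, and among the R1002- libraries 3.08 with 10 of 10 members positive. There 4 were higher at an unadjusted p under 0.05, against 264 of 17531 genes. The direction of the list thus differed between the fits. The skeletal muscle list, a sign of adjacent tissue, had a median of 0.51 (0.01 without tumour 622, 1.51 without T-cell-poor tumour 562), with 0 of 12 members at that threshold and sums of 1243 to 44980 CPM in the T-cell-rich against 96.7 to 6351 CPM. Its median slope on the score was 1.80, and -0.69 among the R1002- libraries with 0 of 12 members positive. The endothelium list had a median of 0.17 with 1 of 15 members higher, or 0.03 without tumour 1979 and 0.36 without 622. The effect of admixed tissue on the immune differences was not tested.

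On the tumour side, Runx2, the master factor of bone-forming cells, was lower in the T-cell-rich tumours at 127 to 225 CPM (median 145) against 125 to 293 CPM (median 210). Its log2 fold change was -0.54 (SE 0.19, p = 0.00914), -0.78 in set A and -0.12 in set C, and 9 of 10 T-cell-rich tumours lay below the T-cell-poor median. Matrix genes overlapped between the classes: Col1a2, the second chain of type I collagen, was at 11700 to 71200 CPM against 18000 to 84400 (log2 fold change 0.25, SE 0.43, p = 0.567), and Sparc, a matrix glycoprotein, at 4260 to 16500 against 2910 to 24500. Without 1 library Col1a2 ran from -0.01 (without 1979) to 0.45 (without 1522) and Sparc from 0.02 to 0.51 (without the same tumours). Of 14 osteoblast genes, all tested, 1 was lower at an unadjusted p under 0.05, 12 were positive and the median was 0.19, or 0.01 without tumour 1979. Pdgfra, a growth-factor receptor of mesenchymal cells, differed by -0.95 (SE 0.31, p = 0.00641), with class medians of 338 and 334 CPM and a T-cell-poor maximum of 2120 CPM in tumour 622, without which it differed by -0.09. Atp10a, a membrane lipid flippase, was at 19.8 to 70.3 CPM against 26.7 to 87.3 (log2 fold change -1.07, SE 0.26, p = 0.000507).

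Ncl, the nucleolar protein nucleolin, was at 89 to 278 CPM against 173 to 328 (log2 fold change -0.58, SE 0.20, p = 0.00843), and Wdr43, a ribosome assembly factor, at 68 to 134 CPM against 92 to 238 (log2 fold change -0.63, SE 0.24, p = 0.0152). Within set A these were -0.97 and -1.01. Within set C, where tumour 1813 alone is set against T-cell-poor tumours of its genotype, they were 0.09 and 0.10. The values without tumour 1813 below concern the same library. Of 16 members of the Myc and ribosome list, all tested, 2 were lower at an unadjusted p under 0.05 and the median was -0.38, with 7 lower and -0.62 without T-cell-rich tumour 1813. On the score 10 of the 16 had a negative slope at that threshold, against 777 of the 17624 genes. Ldha, the enzyme that makes lactate, was at 214 to 823 CPM (median 384) against 269 to 1050 CPM (median 670), a log2 fold change of -0.78 (SE 0.33, p = 0.0288), -0.81 in set A and -0.10 in set C. The 15 hypoxia and glycolysis genes had 2 lower and a median of -0.29, which ran from -0.68 without tumour 1813 to -0.14 without 1522. Mki67, a marker of dividing cells, overlapped widely at 213 to 465 CPM against 176 to 734 (log2 fold change -0.34, SE 0.29, p = 0.265, or -0.17 without tumour 622). All 22 proliferation genes had negative values, with 1 at an unadjusted p under 0.05 and a median of -0.25, whereas 9 of the 22 were positive among the R1002- libraries. Without tumour 622 that median was -0.15 with 6 of the 22 positive, and without 1813 it was -0.45. The summed level of the list, not adjusted for genotype, overlapped and had its medians in the other direction. It was 1076 to 1974 CPM (median 1493) in the T-cell-rich and 1080 to 2660 CPM (median 1340) in the T-cell-poor tumours. The 22 p53 pathway genes had 0 at that threshold and a median of 0.01, and Trp53 itself was at 18.2 to 47.5 CPM against 8.78 to 37.9 (log2 fold change 0.22, SE 0.18, p = 0.23, or 0.34 without tumour 622).

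Cdh19, a cadherin of Schwann cells, rose with the score (slope 6.86, SE 1.25, adjusted p = 0.0118 by edgeR), with a median of 1.06 CPM in the T-cell-rich and 0.142 CPM in the T-cell-poor tumours and a maximum of 59.2 CPM in p53R172H/fl tumour 1439. The next T-cell-rich tumour was at 2.83 on the log2(CPM + 1) scale, against 5.91 for tumour 1439. Without that tumour Cdh19 was still called, with a slope of 4.48 (adjusted p = 0.0122 by edgeR). It reached the count filter in 2 of 10 T-cell-poor and 9 of 10 T-cell-rich libraries, so it too was tested through the T-cell-rich class. The slopes of Cdh19 are therefore a description only. Of 9 tested members of the Schwann cell and nerve list (10 in all, and 2 of the 9 tested through the T-cell-rich class), 2 were higher at an unadjusted p under 0.05. All 9 were positive and the median log2 fold change was 0.51. Without T-cell-poor tumour 622 that median was -0.02, with 4 of the 9 positive and 1 higher.

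No difference in the score between genotypes passed the permutation test. Mean scores were 0.63 ± 0.33 in p53R172H/fl (SD, n = 13), 0.42 ± 0.34 in p53fl/fl (SD, n = 10) and 0.39 ± 0.23 in p53R245W/fl tumours (SD, n = 8). A two-sided permutation test over the 3 genotypes gave p = 0.161 with 100000 resamples. The difference was -0.21 for p53fl/fl against p53R172H/fl (permutation p = 0.15), 0.24 for p53R172H/fl against p53R245W/fl (exact permutation p = 0.09) and 0.03 for p53fl/fl against p53R245W/fl (exact permutation p = 0.839). Adjusted over the 3 pairs these were 0.225, 0.225 and 0.839.

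The 18 libraries with the prefix R1002- gave values for some of the same profiles. Each correlated best with 1 library of its own genotype among the other 34, and all 18 matches were distinct. Correlations were taken on log2 values after the means of library set and of genotype were subtracted, without X and Y genes. The best Spearman correlations over 14480 genes were 0.688 to 0.920 against at most 0.472 for the second best. The labels do not say that these libraries are repeats, so they are no independent tumours here. Of the 20 tumours, 8 T-cell-poor and 3 T-cell-rich had such a match, with scores of 0.14 to 0.40 and 0.69 to 1.24. Gimap3 was at 3.04 to 4.81 CPM in the 3 matches of T-cell-rich tumours and 0.325 to 0.887 CPM in the 8 others, and Cd8b1 at 1.31 to 1.55 against 0.157 to 0.479. Pdcd1 overlapped, at 0.191 to 0.517 CPM against 0.059 to 0.928. With the score as a covariate over the 16 of these libraries above the Col1a1 floor, 0 genes were called by edgeR and 588 had an unadjusted p under 0.05. All 28 genes called over the 31 tumours had the same sign there, 13 of them at an unadjusted p under 0.05. Ighm had a slope of 2.08 (p = 0.00095 by edgeR). The 28 genes were chosen in the 31 tumours, and the best matches of these 16 libraries lie among those tumours. The shared sign is therefore no replication.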

How the data were processed

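RNA from flash-frozen tumours was sequenced as stranded, paired-end mRNA libraries, per the labels. The authors deposited a table of raw read counts per Ensembl gene, which holds 20730 genes in 52 libraries, without normalization. Reads were aligned with STAR to GRCm38, per the submitters' processing notes. Program versions, the counter and its strand setting are not given in the sources at hand. The lowest gene total was 260, so rarer genes had been removed upstream. Symbols came from GENCODE M21 by Ensembl identifier (20668 matched, 62 did not), and 14 genes share a symbol.

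edgeR 4.0.16 (R 4.3.3) fitted class and genotype to the 20 libraries with TMM library sizes, robust quasi-likelihood F tests and filterByExpr with a minimum count of 10. Benjamini-Hochberg adjustment ran over the 17624 genes left, without the 5 score genes. Standard errors were obtained by dividing each log2 fold change by the root of its F statistic. CPM in the results uses TMM library sizes, but the score uses column totals. List medians and counts describe tested members only. The fit was tested on simulated data with 200 changed genes. Scores between genotypes were compared by two-sided permutation.

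The alternatives were RLE factors, DESeq2 1.42.0, limma 3.58.1 voom, other filters, other covariates, other class sizes, no Col1a1 floor, a score without Cd8a, fits within a library set, the R1002- libraries and leaving out each library. The tumours, lists and tests were chosen with earlier results of these data known. Named genes were to be the largest changes among called genes, at most 5 called genes of every list, or the 2 most abundant if none was called, and Trp53, Cd4, Cd8b1, Ifng, Foxp3, Pdcd1, Cd274, B2m, Cxcl9 and Col1a2. No gene was called, so not all of the abundant members are given. Other named genes, the CCAAT motif and the H2-Aa and H2-Eb1 promoters were chosen after their values were seen. Promoters are from RefSeq (GRCm38.p6); those of Ciita and H2-Ab1 are not used here.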

Additional observations from a re-analysis of the deposited data

Results flagged for a closer look

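Among 136 groups of 10 tumours (the score and each named gene, within each class), 24 held a tumour whose gap to its neighbour passed Dixon's limit at 95%. Chance flags about 1 in 20 groups, and genes of 1 tumour are not independent. Values here are log2(CPM + 1).

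T-cell-poor p53fl/fl tumour 1512, the lowest by score, stood below the other T-cell-poor tumours in 13 genes of antigen presentation and myeloid cells. Its class II values were 2.99 for H2-Ab1 (next 6.02), 2.84 for H2-Aa, 2.29 for H2-Eb1 and 4.11 for Cd74. Dendritic and interferon genes were at 3.09 for Wdfy4, 2.49 for Irf8 and 2.34 for Gbp2. Macrophage and protease genes were at 3.05 for Adgre1 (next 5.30), 4.82 for C1qa, 1.29 for Aif1, 6.20 for Lyz2, 4.04 for Ctss and 0.944 for Cx3cr1. Other T-cell-poor tumours apart from their class were 562 with B2m at 8.23, low, 1427 with Clec9a at 0.428, high, 1817 with Jchain at 3.73, high, and 622 with Pdgfra at 11, high.

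In the T-cell-rich class tumour 1979 was high in Cd4 at 4.96 (next 3.66), tumour 889 in Il18r1 at 1.87, tumour 5798 in Cxcr6 at 4.06, tumour 1439 in Cdh19 at 5.91 and tumour 627 in Atp10a at 6.15. Tumour 865 was low in Pdcd1 at 0.39 and tumour 1383 in Col1a2 at 13.5.

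The highest T-cell scores of the series were outside the comparison. The p53R245W/fl library of tumour 1831, set aside for Col1a1 under 13 log2 CPM, scored 2.59, and the R1002- library 494 that matched it best scored 2.5. The highest score in the comparison was 1.17.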

How the results depend on the processing

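For T-cell-rich versus T-cell-poor tumours the count of called genes was 0 in the comparison as reported, with RLE factors, voom, no filter, a minimum count of 50, a middle class, 7 against 7 tumours, no Col1a1 floor, the score without Cd8a, within set A, within set C and in both fits of the R1002- libraries. It was 11 with DESeq2, 1 without genotype, 1 with library set and 18 with 13 against 13 tumours. The continuous score gave 28, and in fits added after seeing the data 32 with library set, 33 without tumour 1241, 25 without 627, 30 without 1512 and 35 without 1439. Leaving out each of the 20 libraries gave 0 to 0 called genes, and 681 to 1362 at an unadjusted p under 0.05. The cause of these differences was not tested.

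Of 67 genes, 47 kept their direction in every alternative above except those that leave a library out. Within set C the class difference is that of tumour 1813 alone against T-cell-poor tumours of its genotype. Reversed values there were -0.34 for Cd4, -0.27 for Sh2d2a, -0.10 for B2m, -0.21 for Col1a2, 0.10 for Wdr43, 1.05 for Tcf7, 0.30 for Sdc1, -0.014 for Apoe, 0.039 for Mki67 and 0.093 for Ncl. In the R1002- libraries, 5 against 5, they were -0.00060 for Klrd1, -0.25 for Cxcl10, -0.19 for B2m, -0.47 for Clec9a, -0.058 for Adgre1, -0.078 for C1qa, -0.18 for Apoe, -0.36 for Lyz2, -0.12 for Ctss and -0.049 for Sparc. With the continuous score there they were -0.095 for Klrd1, -0.073 for Cxcl10 and 0.0017 for Mki67. Col1a2 was at -0.11 without the Col1a1 floor and Sparc at -0.021 without genotype. Zeb2, near 0 in the comparison, was at 0.059 with 13 against 13 tumours and 0.117 and 0.047 in the R1002- fits on the score and 5 against 5. Runx3, also near 0, was at -0.011 with voom, -0.031 with a middle class, -0.0079 on the score, -0.066 with 13 against 13, -0.14 without the floor, -0.066 within set A, and -0.52 and -0.33 in those R1002- fits. The cause was not tested.

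The score by genotype stayed past no threshold: p = 0.647 with the libraries under the floor and 0.165 without Cd8a (permutation tests). No paired analysis was possible because the genotypes share no replicate numbers. Cd3e had at most 80 counts per library.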
